A study of Rattus norvegicus with 9 samples.

Results

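Assembly of an antigen receptor in B cells was followed through 7 genes, taken by symbol from the 41801 genes listed for each library, and all 7 were found: Rag1, Rag2, Dntt, Igll1, Vpreb3, Cd79a and Cd79b. They were described across the stages of the B lineage in cells from the osteotomy site of the proximal tibia of male Sprague-Dawley rats aged 6 to 8 weeks. All rats had a tibial circular osteotomy and a full-thickness skin wound on the foot. Rats labelled TO were left without radial extracorporeal shock wave therapy (rESWT), and rats labelled TOE received it there, in a session on day 2 and a further session on day 4, so the TOE libraries named 2d were taken before the later session. The libraries were TO_2d_0h, TO_2d_4h, TO_4d_4h and TO_4d_24h without rESWT, and TOE_2d_4h, TOE_2d_24h, TOE_4d_4h and TOE_4d_24h with it, where the name gives the day after surgery that the session fell on and the hours from that session to collection. Libraries without rESWT were named for the same times, and a library named 24h was therefore taken on the day after the named day. Each condition was 1 library made with 10x Genomics chemistry, from 9 rats for the whole series with no statement of how many rats entered each library, so a p-value across libraries measures the spread between conditions as well as between animals. TO_2d_24h was not analysed here.

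B cells build their receptor from gene segments. The RAG1 and RAG2 proteins together form the recombinase that cuts the DNA beside V, D and J segments, the end joining proteins close the breaks, and terminal deoxynucleotidyl transferase, the product of Dntt, adds nucleotides at the joins. The heavy chain is assembled first, in pro-B cells, and is tested on the cell surface with a surrogate light chain (Igll1 with the VpreB proteins) and the signalling pair CD79a and CD79b. Cells that pass divide, come to rest as small pre-B cells, rearrange the light chain and become immature B cells, which carry a complete receptor. Vpreb3 is related to the VpreB genes, and its product stays inside the cell. The recombinase is known to be restrained during division.

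The 8 libraries held 116711 barcodes, of which 111646 were kept as cells. The libraries had 12451 to 17187 barcodes and 95954800 to 144146202 UMIs (unique molecular identifiers, counted once per captured RNA molecule). B-lineage cells numbered 63811, or 57.2% of all, and made up 49.6% to 66.0% of a library with a median of 4136 to 4724 UMIs per cell. Clustering without the 7 genes gave 2601 pro-B-like cells, 14064 cycling cells, 31180 small pre-B-like cells, 12995 immature or mature B cells and 128 plasma cells, with 2843 cells left without a stage. The markers chosen for the stage were highest in that stage for 12 of 12 in cycling cells, 14 of 15 in immature or mature cells, 7 of 10 in pro-B-like cells and 3 of 8 in small pre-B-like cells, so the last name rests on Cecr2, Tifa and Bach2, while Il2ra and Arpp21 were higher in pro-B-like cells. Another assignment, from marker sums in single cells, gave 68.6% of the cells the same stage. Pairs of libraries shared 40 to 73 cell barcodes, except TOE_2d_4h and TOE_4d_4h, which shared 110, or 0.783% of the smaller library. TOE_4d_24h and TOE_2d_4h stood apart from the rest in a set of 9 immediate-early genes (Fos, Fosb, Jun, Junb, Egr1, Nr4a1, Dusp1, Ier2 and Cd69, genes transcribed rapidly when a cell is stimulated). Their summed level in B-lineage cells was 948 and 1291 UMIs per 1000000 UMIs of the same cells (CPM) in those libraries and 2098 to 3387 CPM in the other 6.

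The start regions of the genes whose levels moved most between stages follow, since these genes had contrasting patterns. They come from RefSeq on the build GRCr8 and run from 250 bases before to 50 bases after the annotated start, written 5′ to 3′ on the strand of the gene. Capitals mark E-boxes, the hexamer CANNTG that reads as itself on the opposite strand and is the recognition sequence of the E proteins, which are known regulators of early B cells. Rag1 lies at chr3:108383135-108383434 on the minus strand, Rag2 at chr3:108357149-108357448 on the plus strand, Dntt at chr1:249805552-249805851 on the plus strand and Igll1 at chr11:97642937-97643236 on the plus strand.
Rag1: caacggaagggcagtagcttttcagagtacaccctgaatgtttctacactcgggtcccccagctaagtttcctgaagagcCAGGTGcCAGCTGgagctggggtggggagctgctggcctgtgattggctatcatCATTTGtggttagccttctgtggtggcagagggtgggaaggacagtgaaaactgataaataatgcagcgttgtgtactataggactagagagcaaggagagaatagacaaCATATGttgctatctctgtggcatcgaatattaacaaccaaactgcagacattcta
Rag2: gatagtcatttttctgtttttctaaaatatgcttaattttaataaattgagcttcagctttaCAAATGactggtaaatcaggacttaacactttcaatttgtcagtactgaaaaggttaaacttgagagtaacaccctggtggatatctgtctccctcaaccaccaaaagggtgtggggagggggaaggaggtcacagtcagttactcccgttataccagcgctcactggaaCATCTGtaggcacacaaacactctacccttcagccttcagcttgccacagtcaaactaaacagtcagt
Dntt: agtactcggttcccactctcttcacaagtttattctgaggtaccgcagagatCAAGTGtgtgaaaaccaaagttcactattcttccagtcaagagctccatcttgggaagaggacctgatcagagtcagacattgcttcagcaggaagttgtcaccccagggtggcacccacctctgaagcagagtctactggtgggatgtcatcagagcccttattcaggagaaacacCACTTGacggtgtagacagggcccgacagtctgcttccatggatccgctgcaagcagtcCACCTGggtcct
Igll1: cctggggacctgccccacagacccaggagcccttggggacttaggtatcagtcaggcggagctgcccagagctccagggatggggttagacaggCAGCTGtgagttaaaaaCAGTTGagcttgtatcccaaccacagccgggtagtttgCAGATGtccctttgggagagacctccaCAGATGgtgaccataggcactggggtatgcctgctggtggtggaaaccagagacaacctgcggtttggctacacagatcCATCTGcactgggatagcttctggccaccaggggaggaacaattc

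E-boxes numbered 4 in the Rag1 window, 2 in Rag2, 3 in Dntt and 5 in Igll1, with 3 in Vpreb3 and 2 in Cd79a. Of all 33469 windows in the table, 72.1% held CANNTG. The narrower form CAGGTG, read on either strand and contained in CANNTG, stood once each in Rag1, Dntt and Cd79a and in 18.8% of all windows. The EBF1 motif, searched as TCCC, any pair of bases and GGGA, was in 0.834% of all windows and in none of the 6 members with an entry. TATAAA, read on either strand, was in 14.2% of all windows and in none of those 6. The table matched 6 of the 7 members. Rag1 and Rag2 are neighbours on chromosome 3, on opposite strands. The counts themselves were made on mRatBN7.2, so these positions belong to the RefSeq build alone.

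The genes were largely confined to the B lineage in counts. B-lineage cells held 93.5% of all Rag1 UMIs, 93.3% of Rag2, 88.1% of Dntt, 93.3% of Igll1, 92.6% of Vpreb3, 92.8% of Cd79a and 92.6% of Cd79b. Within the lineage, pro-B-like cells held 89.0% of the Dntt UMIs, and small pre-B-like cells held 79.3% of the Rag1 UMIs. Igll1 UMIs lay in cycling cells for 64.8% and in pro-B-like cells for 31.3%, and Rag2 UMIs in cycling cells for 47.5% and in small pre-B-like cells for 44.2%. Levels below are CPM of the summed UMIs of a stage in a library, they are not corrected for gene length, and levels of different genes are therefore not compared.

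**Figure D1:**
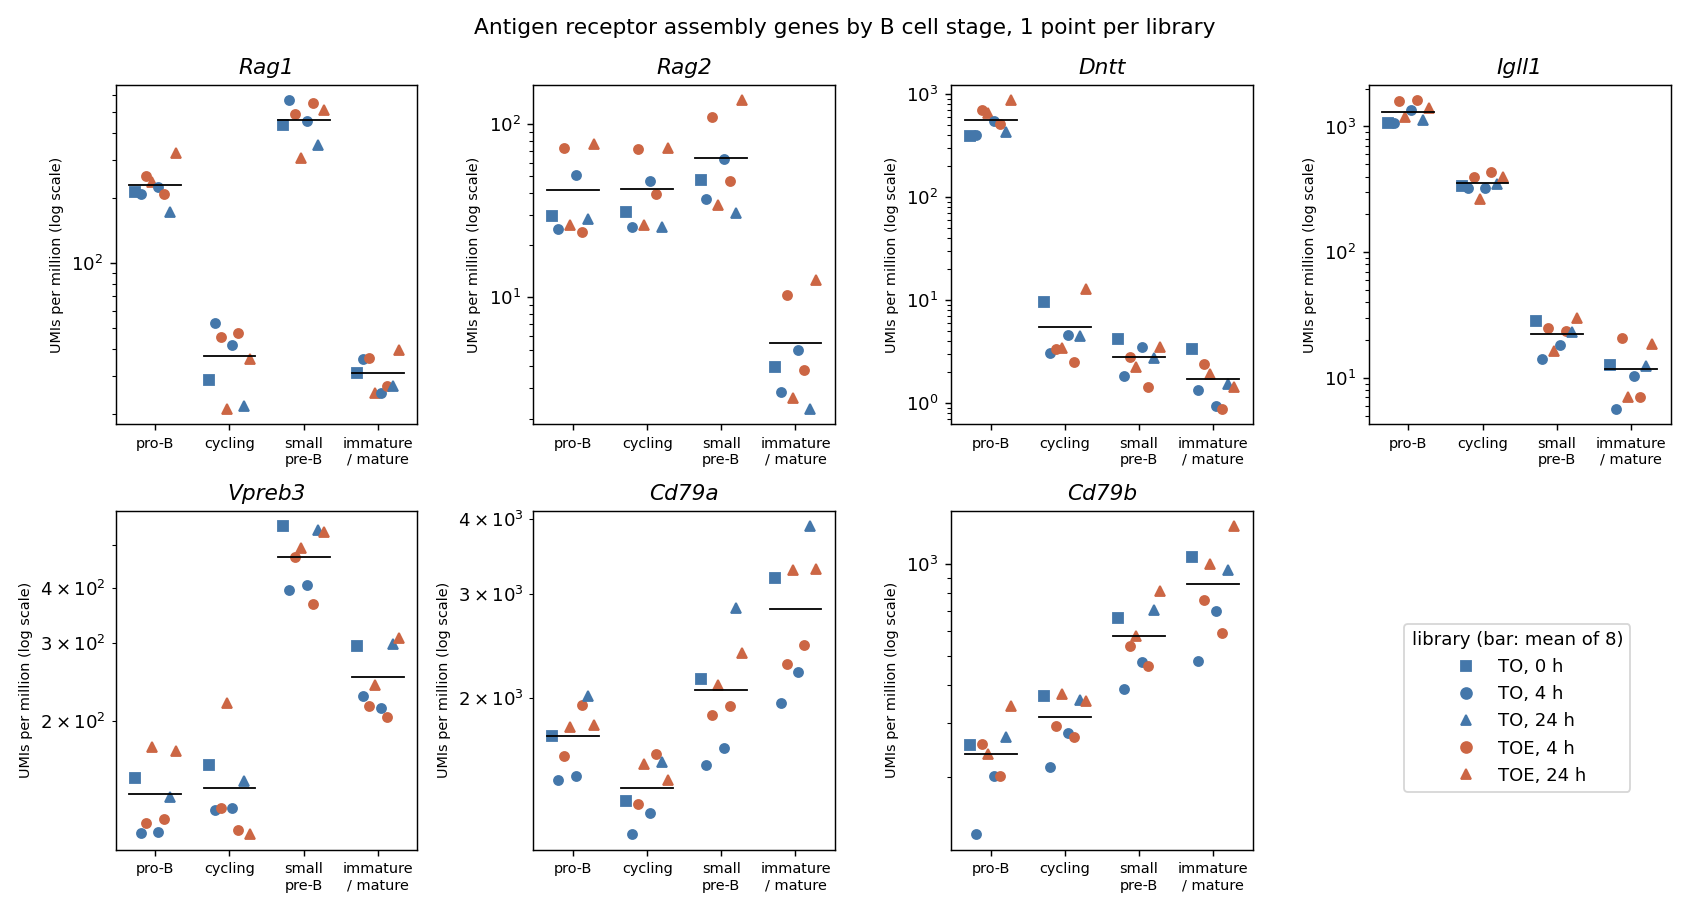
CPM of each of the 7 genes (log axis) in pro-B-like, cycling, small pre-B-like and immature or mature cells, with a point per library and a bar at the mean of the 8 libraries. Dntt falls from a mean of 562 CPM in pro-B-like cells to 5.49 in cycling cells, while Rag1 drops to 36.9 in cycling cells and returns to 460 in small pre-B-like cells.

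Stages were compared within libraries with edgeR's quasi-likelihood test and Benjamini-Hochberg adjustment over all 16559 genes tested, called at 0.05. The cells of all stages come from the same suspensions, so these p-values measure how repeatable a step is over the libraries. Genes called made up 57.2% of all genes tested from pro-B-like to cycling cells, 69.8% from cycling to small pre-B-like cells and 48.2% from small pre-B-like to immature or mature cells. Against that background, 6, 7 and 6 of the 7 members were called at these 3 steps. The size and direction of the steps therefore say more about the members than the number called. The fold changes below use edgeR's normalization factors, whereas CPM and ratios within libraries use plain totals, so small steps can differ between them.

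Rag1, the catalytic subunit of the recombinase, was high, then low, then high, then low along the stages. In pro-B-like cells the level ran from 173 CPM in TO_4d_24h through a median of 219.5 to 325 CPM in TOE_4d_24h. In cycling cells it ran from 21.1 through 38.9 to 52.8 CPM, below every pro-B-like value. In small pre-B-like cells it ran from 307 through 474.5 to 567 CPM, and in immature or mature cells from 25.01 through 28.9 to 39.7 CPM. The means were 231 ± 44.8, 36.9 ± 11.99, 460 ± 92.0 and 30.8 ± 5.75 CPM (SD, n = 8). No range overlapped that of the stage before it. The log2 fold change was -2.54 (SE 0.11) into cycling cells, 3.65 (SE 0.11) into small pre-B-like cells and -3.90 (SE 0.12) into immature or mature cells. In edgeR's quasi-likelihood test the adjusted p was 1.1e-18, 1.2e-23 and 7.0e-23 at these steps. Within a library, small pre-B-like cells exceeded cycling cells 10.7 to 16.2-fold, in 8 of 8 libraries. The pro-B-like stage itself held a group of 542 cells in which all 12 cycling markers were raised. Over all libraries Rag1 was 64.9 CPM in that group and 338 CPM in the other 2059 pro-B-like cells.

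Rag2, the partner of Rag1, did not follow the first drop. The values in pro-B-like cells were 29.7, 24.8, 50.75 and 28.4 CPM in TO_2d_0h, TO_2d_4h, TO_4d_4h and TO_4d_24h, and 73.2, 26.1, 23.7 and 76.8 CPM in TOE_2d_4h, TOE_2d_24h, TOE_4d_4h and TOE_4d_24h. In the same order the values in cycling cells were 31.1, 25.6, 47.0, 25.5, 71.4, 26.3, 39.65 and 72.5 CPM. In each stage TOE_2d_4h and TOE_4d_24h were the highest libraries, and TO_4d_4h came next. In small pre-B-like cells the values were 47.75, 37.1, 62.9, 30.6, 110.6, 34.1, 47.1 and 137 CPM, and in immature or mature cells 3.99, 2.85, 5.00, 2.28, 10.3, 2.63, 3.83 and 12.7 CPM. The means were 41.7 ± 22.3, 42.4 ± 19.8, 63.4 ± 39.3 and 5.45 ± 3.88 CPM (SD, n = 8) from pro-B-like to immature or mature cells. The ranges of the first 3 stages overlapped, and the range in immature or mature cells lay below all of them.

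Within libraries Rag2 was higher in cycling than in pro-B-like cells in 4 of 8, with ratios from 0.899 to 1.67. The log2 fold change at that step was 0.19 (SE 0.08, adjusted p = 0.042 in edgeR's quasi-likelihood test), and this call did not hold up, since the adjusted p was 0.28 with size factors by the median of ratios, ranged from 0.0062 to 0.96 over all alternatives, and the direction turned to -0.03 with the 7 genes kept among the clustering features and to -0.01 with stages from marker sums. Into small pre-B-like cells Rag2 rose by 0.49 (SE 0.07, log2, adjusted p = 1.1e-07, same test), in 8 of 8 libraries and by 1.19 to 1.89-fold. Into immature or mature cells it changed by -3.56 (SE 0.09, log2, adjusted p = 2.4e-24, same test), to between 0.0747 and 0.0931 of the small pre-B-like level in every library. The recombinase genes thus parted in cycling cells, where Rag1 stood at 0.0886 to 0.254 of its pro-B-like level in the same library.

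Dntt, which encodes the transferase that adds nucleotides to heavy chain joins, was a gene of the pro-B-like stage. The level there ran from 394 CPM in TO_2d_0h through a median of 528 to 864.5 CPM in TOE_4d_24h, and in cycling cells from 2.48 through 3.96 to 12.8 CPM. These ranges were far apart. In small pre-B-like cells it ran from 1.42 to 4.19 CPM and in immature or mature cells from 0.885 to 3.34 CPM, where the ranges overlapped. The log2 fold change was -6.61 (SE 0.19) into cycling cells and -0.95 (SE 0.22) into small pre-B-like cells, with adjusted p = 1.2e-22 and 3.8e-04 in edgeR's quasi-likelihood test. The last step was -0.64 (SE 0.34, log2) and missed the threshold (adjusted p = 0.13, same test), which it passed under 3 of the 17 alternatives run. The levels in small pre-B-like and immature or mature cells lay within the 0.5004 to 4.398 CPM found in neutrophils, cells that do not make a receptor.

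The surrogate light chain gene Igll1 fell over all 3 steps. Its level ran from 1057 through 1274 to 1613 CPM in pro-B-like cells, from 264 through 343 to 435 CPM in cycling cells, from 14.2 through 23.4 to 29.8 CPM in small pre-B-like cells and from 5.71 through 11.4 to 20.7 CPM in immature or mature cells. The first 3 ranges did not overlap, and the last overlapped the third. The log2 fold changes were -1.74 (SE 0.11), -4.02 (SE 0.12) and -0.95 (SE 0.14), with adjusted p = 7.9e-15, 1.5e-23 and 6.6e-07 in edgeR's quasi-likelihood test. With stages from marker sums the first step came to 0.01 (log2), so the drop into cycling cells depends on how the stages are drawn. That alternative also ended the call of the last step, at -0.23 (log2, adjusted p = 0.29 in edgeR's quasi-likelihood test), which held under the other 16. Cycling cells held 0.221 to 0.316 of the pro-B-like level and small pre-B-like cells 0.0436 to 0.0835 of the cycling level, in 8 of 8 libraries each.

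Vpreb3 had a different course and was highest in small pre-B-like cells. The medians were 128 CPM in pro-B-like cells, 127 CPM in cycling cells, 480 CPM in small pre-B-like cells and 235 CPM in immature or mature cells, with ranges of 112 to 175, 111 to 219.5, 369 to 551.5 and 204 to 308 CPM. The small pre-B-like range stood clear of the stages on either side of it. The rise into small pre-B-like cells was 1.73 (SE 0.08, log2, adjusted p = 5.6e-19, edgeR's quasi-likelihood test) and the change into immature or mature cells -0.92 (SE 0.08, log2, adjusted p = 1.3e-11, same test). The step into cycling cells was 0.19 (SE 0.08, log2, adjusted p = 0.042, same test) and came to -1.34 with stages from marker sums. That step was also no longer called under most other alternatives.

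Cd79a and Cd79b encode the signalling pair of the pre-B cell receptor and the B cell receptor, and were the only members highest in immature or mature cells. Cd79a ran from 1457 through 1762 to 2019 CPM in pro-B-like cells, from 1182 through 1402 to 1611 CPM in cycling cells, from 1546 through 2025 to 2835 CPM in small pre-B-like cells and from 1963 through 2822 to 3894 CPM in immature or mature cells. Each range overlapped its neighbour, although within libraries cycling cells were below pro-B-like cells in 8 of 8, with ratios from 0.773 to 0.865, small pre-B-like cells exceeded cycling cells in 8 of 8 and immature or mature cells exceeded small pre-B-like cells in 8 of 8. The log2 fold changes were -0.15 (SE 0.07, adjusted p = 0.070, not called), 0.51 (SE 0.07, adjusted p = 1.0e-07) and 0.43 (SE 0.07, adjusted p = 3.9e-06) in edgeR's quasi-likelihood test. The first of them passed the threshold under 13 of the 17 alternatives run, with adjusted p from 3.9e-07 to 0.52.

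Cd79b ran from 129 through 245.5 to 342.5 CPM in pro-B-like cells, from 215 through 324 to 374 CPM in cycling cells, from 390 through 559 to 817 CPM in small pre-B-like cells and from 481 through 857 to 1330 CPM in immature or mature cells. The lowest value of every stage was that of TO_2d_4h. Cd79b rose by 0.57 (SE 0.07), 0.85 (SE 0.06) and 0.53 (SE 0.06) on the log2 scale, with adjusted p = 1.2e-08, 3.0e-13 and 3.2e-08 in edgeR's quasi-likelihood test. Each rise was seen in 8 of 8 libraries. With stages from marker sums the first step came to -0.48 (log2).

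**Figure D2:**
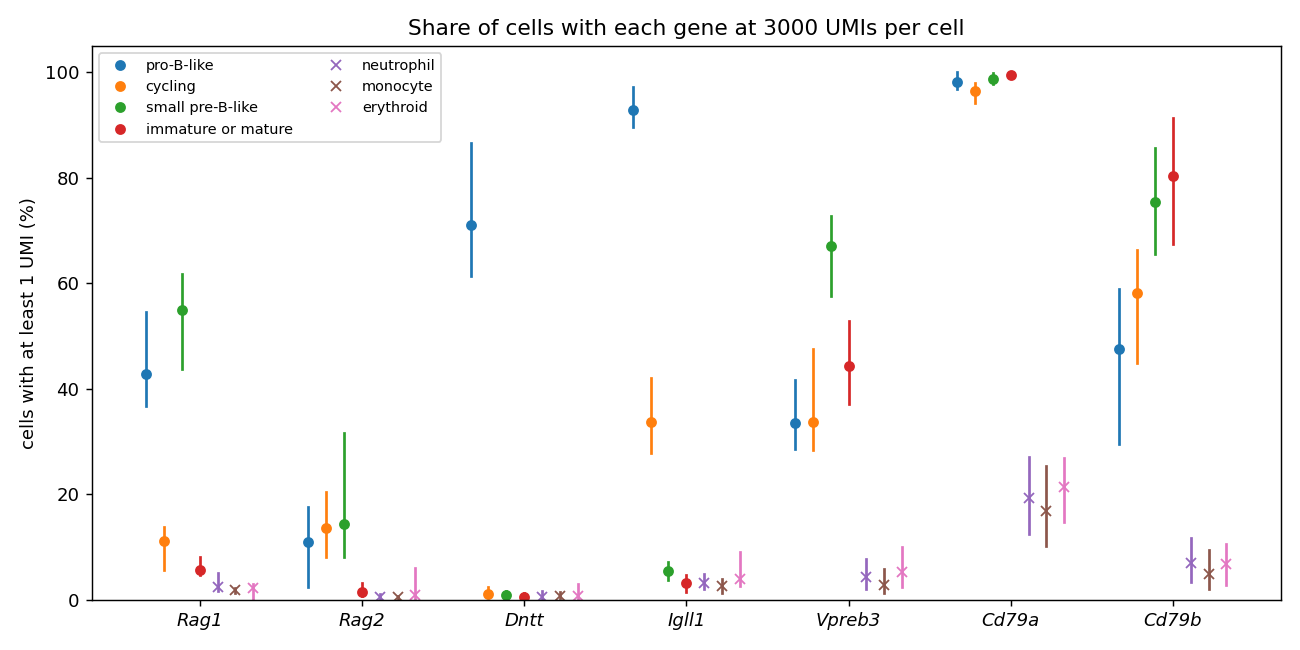
Share of cells (percent) with at least 1 UMI of each gene after every cell was thinned to 3000 UMIs, in the 4 stages and in neutrophils, monocytes and erythroid cells, with shallower cells left out. Points stand for all cells together and bars for the range over the 8 libraries. Rag1 is found in 54.9% of small pre-B-like and 2.45% of neutrophil cells.

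Depth per cell differed between stages, with medians of 7760 UMIs in pro-B-like, 11368 in cycling, 3880 in small pre-B-like and 3958 in immature or mature cells, so shares of cells with a UMI were compared after thinning each cell to 3000 UMIs. This left 2218, 13222, 23401 and 9953 cells of these stages. Rag1 was then found in 42.7% of pro-B-like, 11.1% of cycling, 54.9% of small pre-B-like and 5.66% of immature or mature cells, against 2.45% of neutrophils and 1.77% of monocytes, cells that should lack it. At full depth the share in cycling cells was 23.7%. Rag2 was found in 10.9%, 13.6%, 14.4% and 1.43% of the 4 stages, against 0.582% of neutrophils. Dntt was found in 71.0% of pro-B-like cells and in 1.12%, 0.872% and 0.573% of the later stages, against 0.553% of neutrophils and 0.640% of monocytes, so only the pro-B-like share stood well clear of that background. Igll1 was found in 92.8%, 33.8%, 5.44% and 3.07%, against 3.10% of neutrophils, which leaves its share in immature or mature cells at the background. Vpreb3 was found in 33.6%, 33.7%, 67.0% and 44.4%, and Cd79a in 96.4% to 99.4% of every stage, against 4.35% and 19.2% of neutrophils. The neutrophils had a median of 5154 UMIs per cell.

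Rag1 and Rag2 were also counted in the same cells at that equal depth. Of small pre-B-like cells with a Rag1 UMI, 17.4% had a Rag2 UMI, and of those without one, 10.6%. In cycling cells the shares were 27.6% and 11.8%, in pro-B-like cells 13.9% and 8.58%, and in immature or mature cells 6.22% and 1.14%. The share was higher in the cells with Rag1 in 8 of 8 libraries in each of the 4 stages. Cells that should lack both genes showed such an excess too, with 2.77% and 0.527% of neutrophils and 5.26% and 0.849% of erythroid cells. The counts there were small, at 7 of 253 neutrophils and 4 of 76 erythroid cells with a Rag1 UMI. The share was higher in the cells with Rag1 in 5 and 3 of 8 libraries. Of pro-B-like cells with a Dntt UMI, 93.9% had an Igll1 UMI, against 90.2% of those without.

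Across the 32 sums of 4 stages by 8 libraries, which share libraries, depth and stage, Pearson's r of log2(CPM + 1) was 0.635 for Rag1 with Rag2, 0.818 for Dntt with Igll1 and 0.822 for Cd79a with Cd79b, and Igll1 ran opposite to Cd79b with -0.846. Among 10991 genes, those most like Rag1 were Spo11 (0.917), LOC103691165 (0.893) and Arpp21 (0.893), the last of which was also a stage marker. Those most like Rag2 were Tfdp2 (0.951), Bst1 (0.939) and Mlec (0.935), and those most like Dntt were Kcnj15 (0.988), Gucy1a1 (0.987) and LOC120101511 (0.987). Igll1 was most like Emid1 (0.983), Vpreb1b (0.976) and Vpreb1a (0.975), the last pair of which encodes the other chain of the surrogate light chain. Vpreb3 was most like Card6 (0.947), Tsga10 (0.942) and Sash3 (0.939), Cd79a most like Crlf2 (0.923), C18h18orf32 (0.922) and Selenow (0.919), and Cd79b most like Srpk3 (0.949), Cib1 (0.943) and Ostf1 (0.941).

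The end joining partners of the recombinase were followed in a list of 17 genes, all tested, to be read against the 57.2%, 69.8% and 48.2% of all genes called at the 3 steps. From pro-B-like to cycling cells 9 rose and 4 fell, with a median log2 fold change of 0.62 against 0.12 over all genes tested, in edgeR's quasi-likelihood test. From cycling to small pre-B-like cells 4 rose and 10 fell, with a median of -0.53 against 0.05. From small pre-B-like to immature or mature cells 4 rose and 3 fell, with a median of 0.05 against -0.04. Lig4, the ligase that closes the breaks, moved with Rag1 at the later steps, by 2.04 (SE 0.09) into small pre-B-like cells and -1.51 (SE 0.09) into immature or mature cells. Polm, a polymerase related to Dntt, rose by 1.47 (SE 0.12) and 1.41 (SE 0.09) and then changed by -1.05 (SE 0.09). Poll, of the same polymerase family, went the opposite way, by -1.01 (SE 0.16), -1.48 (SE 0.16) and 1.37 (SE 0.18). Dclre1c, the Artemis nuclease that opens the hairpin ends, rose by 0.62 (SE 0.07) and 0.59 (SE 0.06) and then changed by -0.65 (SE 0.06). Hmgb2, a DNA-bending protein that is also known from dividing cells, rose by 1.56 (SE 0.11) into cycling cells and changed by -3.94 (SE 0.12) out of them. Nbn and Rad50, which act at breaks in dividing cells too, changed by -2.64 (SE 0.08) and -1.68 (SE 0.07) out of cycling cells.

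The receptor and its signalling chain were followed in a list of 18 genes, of which Ighm, Ighd, Igkc, Vpreb1 and Vpreb2 are not listed under those symbols and 13 were tested against the same shares of all genes. From stage to stage 8 rose and 3 fell, 8 rose and 3 fell, and 9 rose and 2 fell, with median log2 fold changes of 0.29, 0.50 and 0.30 against 0.12, 0.05 and -0.04 over all genes tested. Syk and Blnk, the kinase and the adaptor that pass on the pre-B cell receptor signal, rose into small pre-B-like cells by 1.36 (SE 0.07) and 0.76 (SE 0.06) and changed by -0.65 (SE 0.07) and -1.24 (SE 0.06) into immature or mature cells. Cd22, Ptpn6 and Bank1, which temper or adapt receptor signals, rose at that last step by 3.39 (SE 0.08), 2.73 (SE 0.08) and 4.04 (SE 0.11). Cd22 and Bank1 were themselves markers used to name the immature or mature stage, so their rise is not a finding. Both are included in the 9 that rose at that step and in its median of 0.30.

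Shock waves were compared over the 3 pairs of the same day and hour, TOE against TO, which asks whether the assembly genes moved with the treatment. In all B-lineage cells 0 of the 7 members were called by edgeR's quasi-likelihood test with the pair as a block, as were 0% of all 18372 genes tested, while 1400 genes had an unadjusted p under 0.05. DESeq2 called 0 members, beside 7 of the 15166 genes to which it gave an adjusted p (0.0462%). Rag2 had the largest difference among the members, 0.88 (SE 0.36, log2), with adjusted p = 0.62 in edgeR's quasi-likelihood test. Rag1 stood at 0.07 (SE 0.23), Dntt at 0.21 (SE 0.24), Igll1 at 0.19 (SE 0.20), Vpreb3 at -0.17 (SE 0.19), Cd79a at -0.03 (SE 0.19) and Cd79b at 0.09 (SE 0.19). Within stages 0 of 28 member and stage combinations were called, beside 0% of all genes in pro-B-like, 0% in cycling, 0% in small pre-B-like and 0% in immature or mature cells, where 1235, 1181, 1143 and 1089 genes had an unadjusted p under 0.05. No member of either gene list was called in any of these comparisons.

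Rag2 within stages stood at 0.60 (SE 0.39), 0.83 (SE 0.33), 0.99 (SE 0.40) and 1.17 (SE 0.52) on the log2 scale from pro-B-like to immature or mature cells, with adjusted p from 0.60 to 0.67 in edgeR's quasi-likelihood test. The 3 pairs went different ways. In small pre-B-like cells the ratio of TOE to TO was 2.98 (95% interval 2.70 to 3.29, counting error only) at 2d_4h, 0.748 (0.68 to 0.83) at 4d_4h and 4.48 (4.05 to 4.96) at 4d_24h. In cycling cells it was 2.79, 0.843 and 2.84, and in pro-B-like cells 2.95, 0.467 and 2.71. Immature or mature cells, at 15 to 99 UMIs of Rag2 per library of these pairs, gave 3.61, 0.767 and 5.56. In small pre-B-like, cycling and immature or mature cells the pairs compared different sub-clusters or different mixes of them. In small pre-B-like cells at 4d_24h, 3249 of 3846 cells of TO lay in one with 27.2 CPM of Rag2, which held 17 cells of TOE. Another, with 152 CPM, held 2930 of 3563 cells of TOE and 98 cells of TO. In cycling cells at 4d_24h, 1456 of 1642 cells of TO lay in one with 22.3 CPM of Rag2, which held 13 cells of TOE, and 1089 of 1948 cells of TOE in another with 59.1 CPM, which held 87 cells of TO. In immature or mature cells at 4d_24h, 1343 of 1523 cells of TO lay in one with 2.33 CPM of Rag2 and 1272 of 1315 cells of TOE in another with 10.6 CPM, and at 2d_4h the latter held 82 cells of TO and 1185 of TOE. Neutrophils, cells that should lack Rag2, had 1.30 and 5.22 CPM in TO and TOE at 2d_4h, 1.81 and 1.66 CPM at 4d_4h and 1.43 and 3.82 CPM at 4d_24h, beside 2.28 to 12.7 CPM in immature or mature cells of these pairs. They held 189 Rag2 UMIs over all libraries. Over the libraries Rag2 ranged from 0.46 to 2.49 CPM in monocytes and from 1.86 to 15.97 CPM in erythroid cells. Whether such background contributed to the ratios was not tested. Without the 4d_4h pair, which leaves 2 pairs, the difference in all B-lineage cells was 1.51 (log2) with adjusted p = 1.1e-04 in edgeR's test, and over all alternatives run the adjusted p ranged from 1.1e-04 to 1.00. TO_4d_4h or TOE_4d_4h left out alone had this same effect, and 3 of 28 combinations within stages were then called, all of them Rag2. Of all genes these fits on 2 pairs called 7.88% in all B-lineage cells, and 1.67% in pro-B-like, 4.62% in cycling, 5.73% in small pre-B-like and 0% in immature or mature cells.

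**Figure D3:**
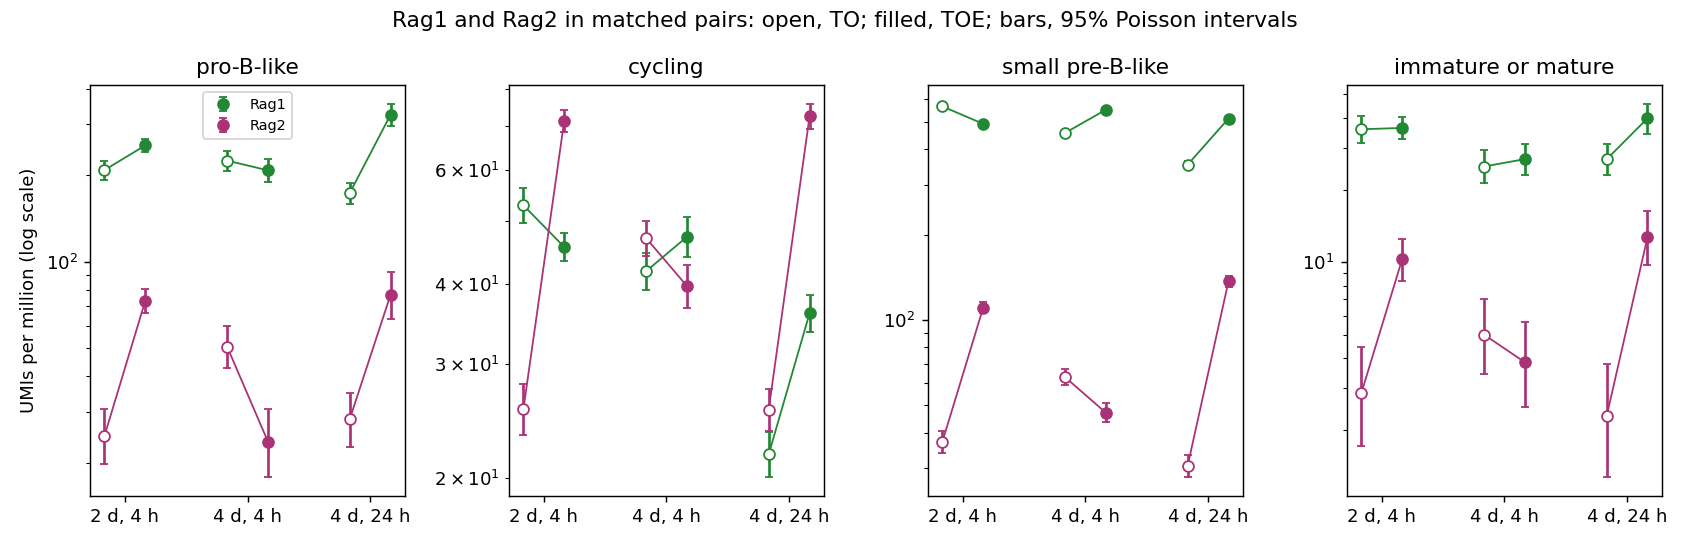
CPM of Rag1 and Rag2 (log axis) in each stage for the pairs 2d_4h, 4d_4h and 4d_24h, with 95% counting intervals. Open points stand for TO and filled points for TOE, joined by a line within a pair. In small pre-B-like cells the ratios of TOE to TO are 2.98, 0.748 and 4.48 for Rag2 and 0.867, 1.21 and 1.46 for Rag1.

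Counted over the 28 member and stage combinations, a difference of at least 2-fold with at least 20 UMIs over the pair was seen for 5 at 2d_4h, 2 at 4d_4h and 6 at 4d_24h. Over all genes and stages the shares past that line were 12.1%, 4.14% and 24.8% of those tested. Rag2 was past it in all 4 stages at 2d_4h and at 4d_24h. Dntt in pro-B-like cells had ratios of 1.76, 0.918 and 2.01 over the pairs, and Igll1 there 1.51, 1.19 and 1.24. Rag1 in small pre-B-like cells had 0.867, 1.21 and 1.46, which did not follow Rag2.

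The pair of libraries with the highest Rag2, TOE_4d_24h and TOE_2d_4h, had the fewest immediate-early transcripts. Small pre-B-like cells inside a library, split at a limit of these genes given below, were ordered in the same way. Single sub-clusters did not all keep that order. Over all libraries, a cycling one with 2030 CPM of these genes had 237 CPM of Rag2, and another with 493 CPM had 28.5 CPM. Small pre-B-like ones with 2306 and 2755 CPM of these genes had 33.8 and 27.2 CPM of Rag2. Those with 3481 and 4398 CPM had more, at 54.45 and 43.95 CPM. Sub-clusters with a summed CPM of the 9 immediate-early genes under 1000, a limit set after the sub-clusters were seen, held 19.7%, 3.55%, 21.2% and 2.70% of the small pre-B-like cells in TO_2d_0h, TO_2d_4h, TO_4d_4h and TO_4d_24h. They held 50.5%, 8.77%, 9.83% and 83.7% in TOE_2d_4h, TOE_2d_24h, TOE_4d_4h and TOE_4d_24h. Rag2 in these cells was 146, 114, 162, 142, 173, 132, 132 and 155 CPM in that order of libraries, and in the other small pre-B-like cells 30.3, 34.3, 35.6, 28.5, 43.7, 26.7, 37.6 and 46.4 CPM. The ranges did not overlap, and Rag2 was higher in the cells low in immediate-early genes in 8 of 8 libraries. Sub-clusters were drawn from all genes other than the 7 members, and their split was found by looking at these data, so it is given as a description with no test.

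The ratios of TOE to TO were also taken within these groups of cells. Among small pre-B-like cells low in immediate-early genes the ratio was 1.52, 0.814 and 1.09 at 2d_4h, 4d_4h and 4d_24h, and among the others 1.28, 1.06 and 1.63, beside 2.98, 0.748 and 4.48 for all of them together. The counts behind the first set were 56 and 1558, 491 and 186, and 42 and 1779 UMIs in TO and TOE. Pro-B-like cells and immature or mature cells had no sub-cluster under the limit, so no such split was made there. Their summed immediate-early genes in TO and TOE were 1768 and 1108 CPM at 2d_4h, 2072 and 1593 CPM at 4d_4h and 1851 and 998 CPM at 4d_24h in pro-B-like cells. In immature or mature cells they were 3485 and 2111, 3774 and 3696, and 2708 and 1539 CPM. TOE was lower in these genes in both stages at every pair, by little in immature or mature cells at 4d_4h. The ratios of Rag2 in pro-B-like and in immature or mature cells were 2.95 and 3.61 at 2d_4h, 0.467 and 0.767 at 4d_4h, and 2.71 and 5.56 at 4d_24h. How Rag2 and these genes are related was not tested. Rag1 in small pre-B-like cells was not ordered in the way of Rag2, with 345 to 620 CPM in the cells low in immediate-early genes and 249 to 576 CPM in the others. In cycling cells the sub-clusters under the limit held 8.07% and 59.0% of the cells of TO and TOE at 2d_4h, 32.3% and 17.04% at 4d_4h and 10.9% and 94.25% at 4d_24h. Rag2 was higher in them in 7 of 8 libraries, with TOE_4d_24h as the exception. The limit applied to sub-clusters over all libraries, and those cells reached 1195 and 1564 CPM of immediate-early genes in TOE_2d_24h and TO_4d_24h, so in cycling cells the split did not separate cells low in these genes in every library. The ratio of TOE to TO among cycling cells under the limit was 2.34, 0.824 and 1.14 at 2d_4h, 4d_4h and 4d_24h, and among the other cycling cells 1.83, 1.02 and 8.97, beside 2.79, 0.843 and 2.84 for all of them. The 8.97 set the few cells of TOE outside the 1836 of 1948 under the limit, 95 of them in a sub-cluster with 237 CPM of Rag2, against cells of TO that lay mostly in the one with 22.3 CPM. At 2d_4h, where the split did separate the cycling cells, with 835 against 1650 CPM of immediate-early genes in TO and 376 against 1964 CPM in TOE, Rag2 was thus above a ratio of 1 on both sides. In small pre-B-like cells it did so in every library, with 343 to 976 CPM on one side and 1958 CPM or more on the other. What set the share of low cells in a library was not tested.

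**Figure D4:**
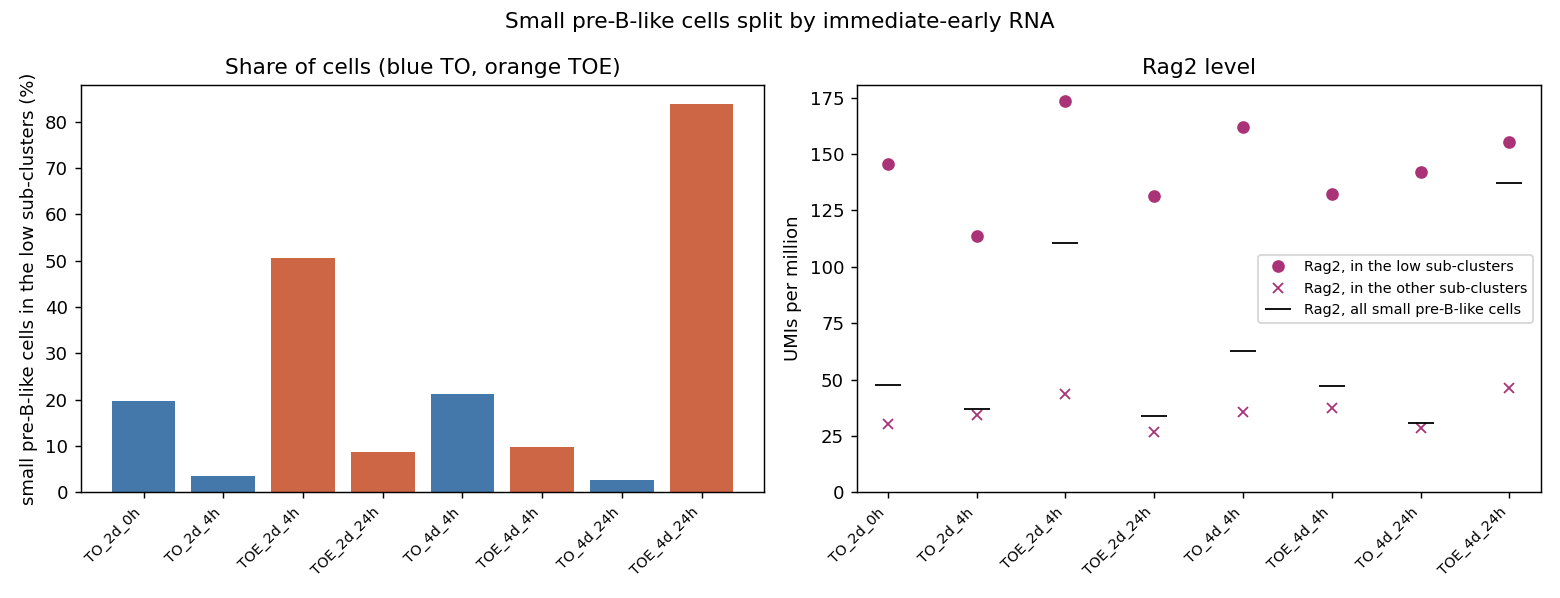
Small pre-B-like cells of each of the 8 libraries, split into sub-clusters with a summed CPM of 9 immediate-early genes under 1000 and the others. Bars give the share of low cells (percent). Markers give Rag2 (CPM) in the low cells, in the others and in all together, without intervals. The low cells lie at 114 to 173 CPM and the others at 26.7 to 46.4 CPM.

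The hour of collection was compared over the 8 libraries, 4 taken at 4 h against 4 taken at 0 or 24 h, with day and arm in the model. Genes called by edgeR's quasi-likelihood test made up 9.21% of all in pro-B-like, 16% in cycling, 17.5% in small pre-B-like and 13.6% in immature or mature cells. Of 28 member and stage combinations 6 were called, 1 in pro-B-like, 2 in cycling, 1 in small pre-B-like and 2 in immature or mature cells. Within the stages other than pro-B-like, the cells at 4 h and at other hours largely fell into different sub-clusters. The sub-cluster with most small pre-B-like cells at 0 or 24 h held 3408, 3686 and 3249 cells of TO_2d_0h, TOE_2d_24h and TO_4d_24h, 17 of TOE_4d_24h and 1 to 6 of each library at 4 h, while another held 1868 to 3001 cells of each library at 4 h and 2 to 16 of each of the rest. Immature or mature cells and cycling cells were largely split in the same manner, so the values below for these stages compare different sub-clusters. Pro-B-like cells lay in the same sub-clusters at all hours. The larger held 172 to 396 cells of each library at 4 h and 149 to 449 of each of the rest. Cd79b was called lower at 4 h in 3 of the 4 stages and Cd79a in immature or mature cells alone. Cd79b was 634 ± 123 CPM at 4 h and 1082 ± 170 CPM at 0 or 24 h in immature or mature cells (SD, n = 4 each), and the ranges, 481 to 763 and 952 to 1330 CPM, did not overlap. The log2 difference there was -0.82 (SE 0.16, adjusted p = 0.019 in edgeR's quasi-likelihood test).

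Cd79b was 466 ± 61.2 against 691 ± 98.8 CPM in small pre-B-like cells and 264 ± 33.9 against 364 ± 8.83 CPM in cycling cells, again without overlap, with log2 differences of -0.62 (SE 0.14, adjusted p = 0.026) and -0.53 (SE 0.12, adjusted p = 0.025) in edgeR's test. In pro-B-like cells it was 197 ± 52.0 against 276 ± 46.4 CPM, a difference of -0.55 (SE 0.17, log2) that missed the threshold (adjusted p = 0.065, edgeR). Cd79a in immature or mature cells was 2231 ± 208 against 3414 ± 324 CPM, without overlap, a difference of -0.67 (SE 0.16, log2, adjusted p = 0.031, edgeR). In pro-B-like, cycling and small pre-B-like cells Cd79a stood at -0.24, -0.20 and -0.49 (log2, adjusted p = 0.24, 0.23 and 0.068, edgeR), not called. Of these, the ranges in small pre-B-like cells did not overlap either. Vpreb3 was lower at 4 h in pro-B-like cells, at 116 ± 4.03 against 158 ± 18.9 CPM without overlap, with a difference of -0.49 (SE 0.12, log2, adjusted p = 0.034, edgeR). In cycling, small pre-B-like and immature or mature cells Vpreb3 stood at -0.40, -0.43 and -0.45 (log2, adjusted p = 0.14, 0.059 and 0.056, edgeR), not called. Its ranges overlapped in cycling cells but not in small pre-B-like or in immature or mature cells. Ranges without overlap were thus seen without a call too, and their share over all genes was not counted. Rag1 in cycling cells went the other way, at 46.8 ± 4.598 against 26.9 ± 6.95 CPM without overlap, with a difference of 0.75 (SE 0.19, log2, adjusted p = 0.033, edgeR). In small pre-B-like cells Rag1 was 517 ± 51.6 against 403 ± 91.6 CPM, the ranges overlapped, and the difference of 0.32 (SE 0.18, log2) was not called (adjusted p = 0.24, edgeR).

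**Figure D5:**
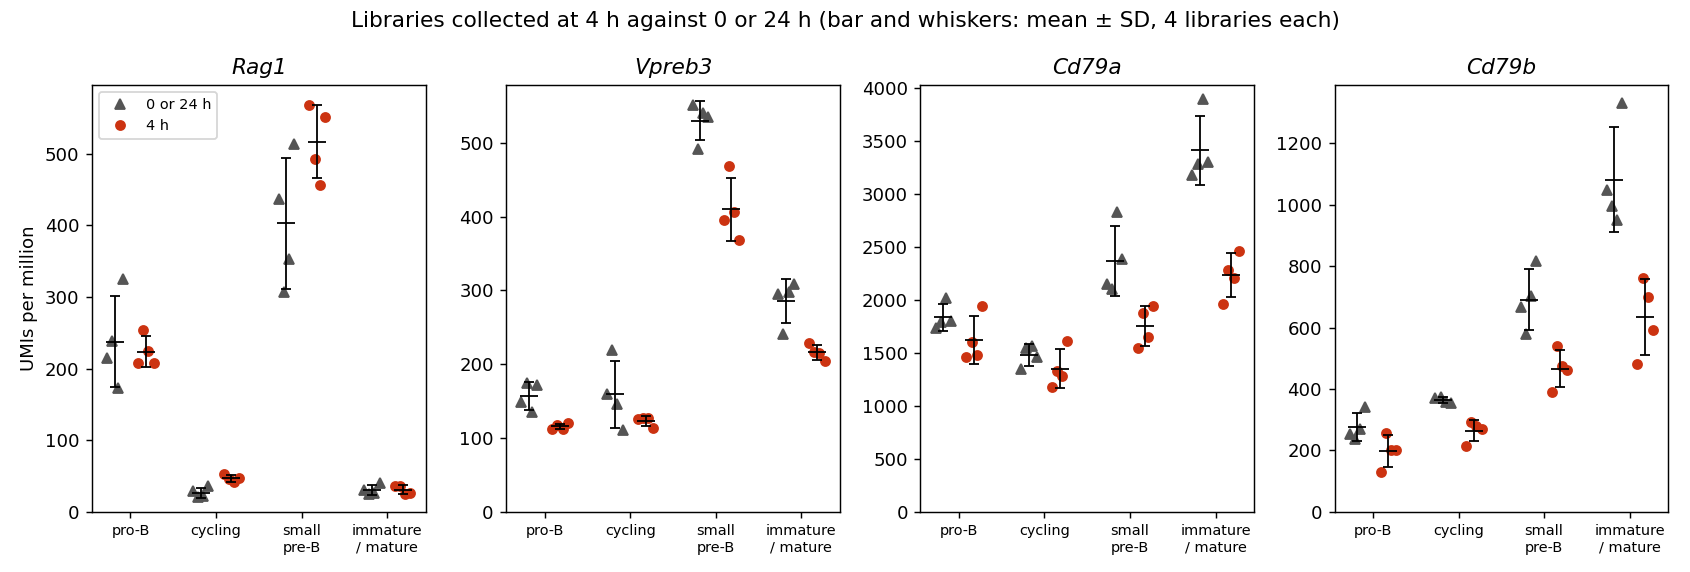
CPM of Rag1, Vpreb3, Cd79a and Cd79b in the 4 stages, in the 4 libraries collected at 4 h and the 4 collected at 0 or 24 h, with points for libraries and the mean ± SD. Cd79b in immature or mature cells lies at 481 to 763 CPM at 4 h and at 952 to 1330 CPM otherwise.

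The number of calls for the hour changed with the libraries used. With 1 library left out at a time, 0 of the 28 combinations were called without TO_2d_0h, TO_2d_4h, TO_4d_4h or TO_4d_24h, beside 1.42%, 1.73%, 1.69% and 2.41% of all genes tested over the 4 stages. Without TOE_4d_4h 1 was called beside 9.64% of all genes, without TOE_2d_24h 3 beside 10.2%, without TOE_2d_4h 4 beside 9.59% and without TOE_4d_24h 12 beside 29.1%. DESeq2 on all libraries called 10 beside 18.7% of the genes to which it gave an adjusted p. The log2 differences of the 6 combinations kept their direction over the 8 fits with a library left out. There Cd79b lay between -0.93 and -0.73 in immature or mature cells, between -0.72 and -0.57 in small pre-B-like cells and between -0.62 and -0.45 in cycling cells. Cd79a in immature or mature cells lay between -0.78 and -0.59, Vpreb3 in pro-B-like cells between -0.54 and -0.45 and Rag1 in cycling cells between 0.60 and 0.93. The hour, the time of day and any batch of libraries collected together cannot be told apart in this design. From pro-B-like to immature or mature cells the calls for the hour numbered 1, 3, 2 and 2 of the 17 end joining partners and 1, 2, 3 and 1 of the 13 receptor and signalling genes, to be read against the shares of all genes given above.

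The named day, 4 against 2, was read from the same fit, with the libraries taken 24 h after the session counted under the day of that session. Of 28 member and stage combinations 0 were called by edgeR's quasi-likelihood test, beside 0% of all genes in pro-B-like, 0% in cycling, 0% in small pre-B-like and 0% in immature or mature cells. At an unadjusted p under 0.05 stood 388, 392, 301 and 198 genes. Rag1 in small pre-B-like cells was 451 ± 110 CPM in the libraries named 2d and 469 ± 86.5 CPM in those named 4d (SD, n = 4 each), and Igll1 in pro-B-like cells was 1230 ± 254 and 1376 ± 197 CPM.

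In the named classes outside the B lineage the members were low. The 128 plasma cells, counted in the lineage, had medians of Cd79a, Cd79b and Vpreb3 above those of every such class, at 691, 190 and 33.7 CPM, while the medians of Rag1, Rag2, Dntt and Igll1 were 5.09, 0, 0 and 10.3 CPM there. Rag1 ranged from 2.16 to 35.4 CPM over the libraries in T or NK, dendritic, endothelial, erythroid, progenitor, macrophage, mast cell or basophil, mesenchymal, monocyte and neutrophil classes. Cd79a ranged from 27.4 CPM in endothelial cells to 268 CPM in mast cells or basophils in these classes, and from 460.5 to 961 CPM in the plasma cells. Among these classes the median of Dntt was highest in dendritic cells, at 9.60 to 50.7 CPM with a median of 11.6 CPM, against 394 to 864.5 CPM in pro-B-like cells. The 6687 cells left without a class were higher than most of these, with 15.0 to 77.0 CPM of Rag1, 15.0 to 163 CPM of Igll1, 579 to 1351 CPM of Cd79a and a median of 12.65 CPM of Dntt. RNA set free from other cells gives counts of this kind in droplets, and how much of these levels it made up was not tested.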

How the data were processed

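Single-cell RNA libraries from 8 conditions were analysed. The files deposited by the authors hold counts, whole UMIs per gene and barcode that were not normalized, and per the submitters' processing notes they came from Cell Ranger 9.0.0, with Seurat, R 4.0.3 and the builds GRCh38 and mRatBN7.2 also named there. A barcode counted as a cell where 200 genes or more were detected and mitochondrial UMIs made up no more than 20%, and cells with a Scrublet score above 0.25 (expected rate 8%) were removed as doublets.

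With scanpy 1.11.5 in Python 3.11.15, the 2000 most variable genes other than the 7 members gave 30 principal components, a graph of 15 neighbours and Leiden clusters at resolution 1, with no integration of libraries. B-lineage cells were clustered again in the same way. A cluster was named by the class or stage with the highest mean standardized marker level, where at least 3 of its markers were raised by 0.5 on the log2 scale. This naming rule was set after the clusters, and the levels of Rag1 and Cd79a in them, had been seen. So was the rule that leaves unnamed a cluster with over 90% of its cells from 1 library or with a low median UMI count. Under that rule a B-lineage sub-cluster also stayed unnamed where another stage had more raised markers and no leading gene marked the stage chosen. The 7 members and the gene lists were chosen with earlier results of these data known. The text names the 7 members, genes of the lists and, for each member, the 3 genes most like it among those with at least 10 CPM in a sum.

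UMIs were summed per library and stage and tested with edgeR 4.0.16 in R 4.3.3 (TMM factors, filterByExpr, quasi-likelihood fit, Benjamini-Hochberg over all genes tested, threshold 0.05). Stages were fitted with the library as a block, shock waves with the pair as a block, and hour and day with the arm as a further term. The SE of a log2 fold change was its size divided by the square root of the F statistic. The fits were tested on simulated counts. Exact Poisson intervals for levels and exact conditional intervals for ratios of pairs are at 95% and cover counting error only. The alternatives were median-of-ratios size factors, DESeq2 1.42.0, no filter on low counts, each library left out, resolutions 0.5 and 2, doublets kept, a cell filter of 500 genes and 10% mitochondrial UMIs, the members kept among the clustering features, stages from marker sums, other covariates, and, added after the data were seen, Rag2 split by the immediate-early genes.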

Additional observations from a re-analysis of the deposited data

Results flagged for a closer look

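Of the 28 combinations of member and stage, 1 had a library far from the others by Dixon's test of the gap at the end of the range. Vpreb3 in cycling cells was 220 CPM in TOE_2d_24h, and 111 to 159 CPM in the other 7 libraries. Chance alone marks about 5% of such groups. In pro-B-like cells TOE_2d_24h was also the highest library for Vpreb3, at 175 CPM.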

How the results depend on the processing

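At the steps into small pre-B-like and into immature or mature cells, every member kept its direction under all alternatives run. From pro-B-like to cycling cells the log2 fold change of Rag2 turned to -0.032 with the members kept among the features, and with stages from marker sums those of Rag2, Vpreb3, Cd79b and Igll1 turned to -0.0093, -1.34, -0.48 and 0.0094. The cause was not tested. For shock waves, the number of members called of 7 in all B-lineage cells ranged from 0 to 1 with a library left out, and the number of 28 within stages from 0 to 3, with 1, Rag2 in cycling cells, called without a filter on low counts, where 1.33% of all genes in that stage were called. For the hour, DESeq2 called 10 of 28, and 0 to 12 were called with a library left out. The design, with 1 library per condition, and the depth both limit these comparisons. Dntt in immature or mature cells rested on 6 to 26 UMIs per library.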
